A study of Mus musculus with 6 samples.

Results

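The Hedgehog pathway was followed through 9 genes in soft tissue tumors driven by NF-κB inducing kinase (NIK). The 9 genes are the ligands Shh and Ihh, the receptor Ptch1, the transducer Smo, the inhibitors Sufu and Hhip, and the transcription factors Gli1, Gli2 and Gli3. They were taken by symbol from the deposited gene table and make up 9 of its 23358 entries. No measured value entered that choice, although the genes were picked with earlier results of these data known.

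Hedgehog ligands bind Patched receptors on the receiving cell, which frees Smoothened (Smo) to act at the primary cilium. Smo signaling turns the Gli proteins from repressors into activators, and Gli1, Ptch1 and Hhip are themselves classic target genes, so their RNA is often read as pathway output. In skin, Shh comes from the hair follicle epithelium and acts on dermal cells and on neighboring epithelium, and in bone Ihh is made by maturing chondrocytes.

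RNA was sequenced from 6 tumors of as many female mice. All 6 mice carried NT3, a NIK allele without its TRAF3-binding domain that was held silent at ROSA26 by a floxed STOP cassette on a C57Bl/6J background. In Osx-Cre;NT3 mice the cassette was removed by a doxycycline-repressed GFP::Cre fusion under Osterix (Sp7), carried on mixed C57Bl/6J and CD1 stock, and doxycycline chow was given until weaning and then stopped. In FSP1-Cre;NT3 mice it was removed by FSP1-Cre (S100a4-Cre) on an FVB/n background, and no doxycycline is described for this line. Osx-Cre marks the osteolineage and a rare dermal population, whereas FSP1-Cre marks fibroblasts of many organs and also some myeloid cells, so neither line confines NT3 to 1 cell type. The tumors arose without further treatment and are named by the numbers in their sample titles. Tumors 13, 18 and 25 came from the trunk of Osx-Cre;NT3 mice with latencies of 150, 168 and 115 days. Tumors 27 and 36, both perineal, and tumor 29, from the trunk, came from FSP1-Cre;NT3 mice with latencies of 101, 52 and 72 days. Age when the tumor was taken is not given in the sources used here. Line, strain background, latency, doxycycline and, in part, site therefore cannot be told apart. Normal tissue was not analysed here, so no level below is set against a benign one.

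Total counts ran from 51824408 to 163297772 per tumor, and 3 counts, the limit that a count of 0 allows, corresponded to 0.0195 to 0.0621 CPM, counts scaled to the size of each library. Such limits cover counting error only. All counts were even, and the limits are too low if both ends of each fragment were counted. The mean RNA integrity number given for the lines was 7.7 for the Osx-Cre;NT3 tumors and 8.5 for the FSP1-Cre;NT3 tumors. Rn45s, the ribosomal RNA precursor, took 10.2% of the counts in tumor 29 and 13.3% in tumor 36, against 5.28% to 7.65% in the other 4. Tumor 27 lay inside the Osx-Cre;NT3 range, so the lines overlapped while 2 of the 3 FSP1-Cre;NT3 tumors were above it, and the part of these shares in the differences below was not tested. Tumor 36 stood apart, with a mean correlation of 0.886 with the other 5 profiles against 0.929 to 0.947 for each of the others. It also held the highest level of all 5 adipocyte genes, all 5 smooth muscle and myoepithelial genes, 5 of 6 hair follicle genes and 4 of 5 simple epithelium genes listed for comparison, so values without it are given where it decides a result. The 6 fibroblast genes examined (Pdgfra, Col1a1, Col1a2, Dpt, Lum and Dcn) were detected in every tumor.

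Among the 8 members tested between the lines, Gli1 and Gli2 had the largest estimated differences. Both factors and the receptor Ptch1 were higher in every FSP1-Cre;NT3 tumor than in any Osx-Cre;NT3 tumor, by estimated factors of 5.16, 3.88 and 2.79. Hhip, which binds ligand outside the cell and blocks it, was lower in every FSP1-Cre;NT3 tumor. Such separation, in either direction, was found for 17% of all genes tested. Smo, Sufu and Gli3 were expressed in all 6 tumors with differences between the lines well inside their errors. None of these differences passed the quasi-likelihood test of edgeR after Benjamini-Hochberg adjustment over all genes, the source of each adjusted p below unless another tool is named. DESeq2 called Gli1 and Gli2, among 420 genes of the 16415 tested.

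The 9 genes lie on 7 mouse chromosomes of GRCm38 (mm10). The deposited spans are chr5:28456840-28467101 for Shh, chr1:74945318-74951651 for Ihh, chr13:63511533-63565520 for Ptch1, chr10:127329882-127341579 for Gli1, chr1:118834061-119053619 for Gli2 and chr8:79965851-80058008 for Hhip, all on the minus strand. Smo at chr6:29735497-29761366, Sufu at chr19:46396918-46486660 and Gli3 at chr13:15463723-15730025 are on the plus strand.

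Promoter sequence from RefSeq (GRCm38.p6, from 250 bases before the start to 50 after it) was at hand for 7 of 9 members, all but Shh and Gli1. Those of Gli2, Ptch1 and Hhip are shown, because these members were separated between the lines, in opposite directions. Each is printed 5′ to 3′ on the gene's minus strand, and capitals mark the GC box GGGCGG on either strand, the motif bound by Sp factors. Their positions are chr1:119053570-119053869 for Gli2, chr13:63565686-63565985 for Ptch1 and chr8:80057959-80058258 for Hhip. The RefSeq start of Ptch1 lies just upstream of the deposited span of the gene.
Gli2: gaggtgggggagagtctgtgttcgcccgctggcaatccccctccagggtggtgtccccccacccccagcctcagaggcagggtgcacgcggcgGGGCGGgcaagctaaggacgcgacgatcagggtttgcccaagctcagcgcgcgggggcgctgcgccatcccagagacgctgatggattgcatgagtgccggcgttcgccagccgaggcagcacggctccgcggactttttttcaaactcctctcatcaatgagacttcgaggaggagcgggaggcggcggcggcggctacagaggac
Ptch1: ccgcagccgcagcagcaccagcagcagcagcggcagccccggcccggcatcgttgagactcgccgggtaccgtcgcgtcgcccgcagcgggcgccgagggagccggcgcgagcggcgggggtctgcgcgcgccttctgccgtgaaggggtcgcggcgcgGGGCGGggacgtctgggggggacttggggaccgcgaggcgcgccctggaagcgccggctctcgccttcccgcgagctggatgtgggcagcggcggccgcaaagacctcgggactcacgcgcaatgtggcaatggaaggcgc
Hhip: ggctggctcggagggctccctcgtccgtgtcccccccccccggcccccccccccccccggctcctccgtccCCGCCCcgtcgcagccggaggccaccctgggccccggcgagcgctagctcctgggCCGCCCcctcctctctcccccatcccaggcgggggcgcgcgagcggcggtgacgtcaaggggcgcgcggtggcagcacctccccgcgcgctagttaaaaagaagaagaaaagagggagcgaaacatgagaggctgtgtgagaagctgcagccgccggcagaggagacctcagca

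The GC box was found in 6 of the 7 member promoters and in 35.7% of 32851 promoters of the same length. GC content was 67.3% for Gli2, 76.3% for Ptch1 and 73.7% for Hhip, against a median of 52.7% over all promoters. The Gli motif GACCACCCA, searched on both strands, was in 0 of 7 member promoters and in 0.253% of all promoters. These letters are thus not in these windows.

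The order of the levels was read from RPKM, which are scaled to gene length. Smo led with a mean of 11.3 ± 1.43 RPKM (SD, n = 6), followed by Sufu at 7.98 ± 4.04, Hhip at 3.54 ± 2.45, Gli3 at 2.16 ± 1.05 and Ptch1 at 1.67 ± 1.06. Gli1 at 1.04 ± 0.984, Ihh at 0.800 ± 1.91, Shh at 0.615 ± 0.583 and Gli2 at 0.526 ± 0.368 closed the order. Smo ranked 5146th and Gli2 13866th by mean RPKM among the 23358 entries. No neighbors in this order were fully separated across the tumors. Sufu exceeded Hhip within each of the 6 tumors, Smo exceeded Sufu in 5, and Ihh exceeded Shh in 1, so the place of Ihh rests on tumor 36. The steadiest member was Smo, whose highest tumor was 1.42 times its lowest. That factor was 4.28 for Sufu, 4.51 for Hhip, 4.84 for Gli3, 7.62 for Gli2, 9.79 for Ptch1, 22.3 for Gli1 and 37.5 for Shh.

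**Figure D1:**
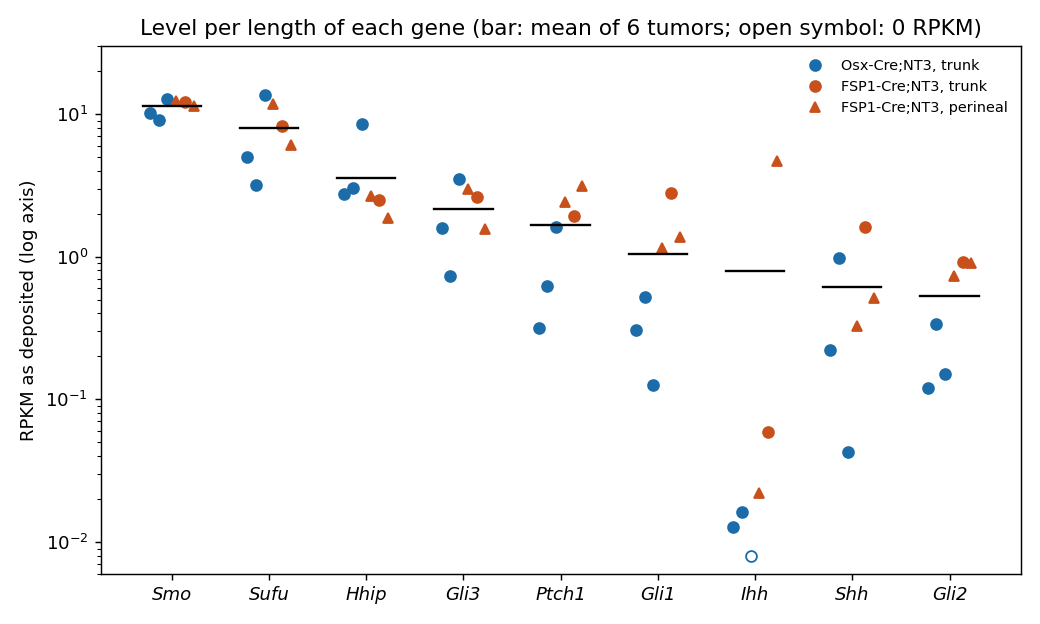
Level of each of the 9 Hedgehog genes in each tumor, as deposited RPKM on a log axis, ordered by the mean of the 6 tumors (horizontal bar). Smo sits near 11.3 in all tumors, while the Ihh mean of 0.800 is set by a single perineal tumor and its other 5 values lie at or near 0.

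The 2 ligands among the members, Shh and Ihh, were low and uneven. Shh, the ligand of hair follicles, measured 0.787, 3.44 and 0.141 CPM in tumors 13, 18 and 25, and 0.982, 5.39 and 1.69 CPM in tumors 27, 29 and 36. The highest values were in 1 trunk tumor of each line and the lines overlapped. The difference of 0.87 ± 1.12 (log2, SE) between FSP1-Cre;NT3 and Osx-Cre;NT3 had a 95% interval from -1.80 to 3.55, so at this n a change of either sign cannot be told apart from none. The antisense transcript 9530036O11Rik shares 8983 bases with Shh, and since the strand setting of the counting is not given, reads from the 2 genes may be mixed. It measured at most 0.948 CPM. Shh peaked in tumor 29 and the summed hair follicle genes (Lef1, Msx2, Hoxc13, Dsg4, Krt71 and Krt25) in tumor 36. These sums were 13.5, 34.2 and 109 CPM in tumors 13, 18 and 25 and 38.1, 17.1 and 268 CPM in tumors 27, 29 and 36.

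Ihh, the ligand of growth plate cartilage, was almost confined to a single tumor. It had 2, 8 and 0 counts in tumors 13, 18 and 25, 4 and 14 counts in tumors 27 and 29, and 908 counts in tumor 36. These correspond to 0.0414, 0.0520 and 0 CPM, then 0.0614 and 0.180 CPM, and 14.2 CPM. Tumor 36 was 79.0 times tumor 29, and the count of 0 in tumor 25 allows a level of up to 0.0422 CPM, or more if both ends of each fragment were counted. The hypertrophic cartilage genes (Col10a1, Col2a1, Acan, Pth1r and Matn3) summed to 29.3 CPM in tumor 36 and 12.8 to 36.8 CPM in the others. Single genes went both ways, with Acan and Pth1r at their highest in tumor 36 and Col2a1 at its lowest. Col10a1, a collagen specific to hypertrophic chondrocytes, stood at 0.156 CPM in tumor 36, against 0.153 to 1.35 CPM in the others. The simple epithelium genes (Krt8, Krt18, Krt19, Cldn3 and Epcam) summed to 4660 CPM in tumor 36 against 566 to 1174 CPM elsewhere. Krt18 alone of these was higher in tumor 18, at 444 CPM against 245 CPM in tumor 36. Other sums also peaked in tumor 36, at 2146 CPM for smooth muscle and myoepithelial, 268 CPM for hair follicle and 128 CPM for adipocyte genes. The part of any of these tissues in the Ihh level was not tested.

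**Figure D2:**
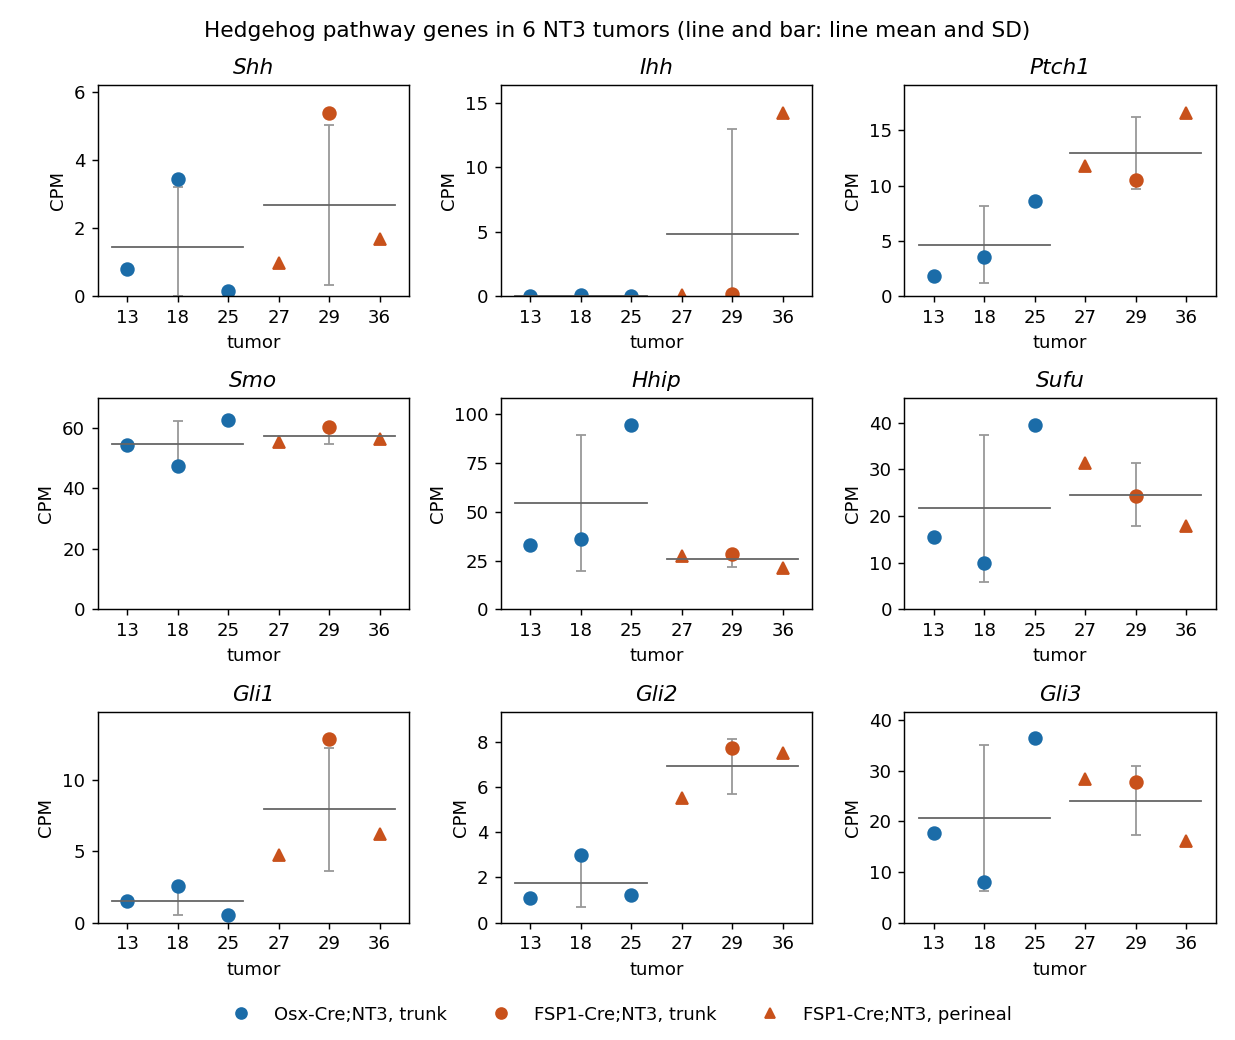
TMM-scaled CPM of each Hedgehog gene in each tumor, with the mean and SD of each line as a bar (SD bars stop at 0). Gli1, Gli2 and Ptch1 are higher in all 3 FSP1-Cre;NT3 tumors than in any Osx-Cre;NT3 tumor and Hhip is lower, Smo, Sufu and Gli3 overlap, and Ihh stands at 14.2 in tumor 36 alone.

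Of the other genes that make or release ligand (Dhh, Hhat, Disp1, Scube1, Scube2 and Scube3), 4 of 6 had a higher estimate in FSP1-Cre;NT3, and the median log2 difference was 0.10 against 0.01 for all genes tested. Scube1, a secreted protein of the family that helps ligand leave the cell, measured 2.69, 1.09 and 1.52 CPM in Osx-Cre;NT3 and 6.82, 4.59 and 12.7 CPM in FSP1-Cre;NT3 tumors. The lines did not overlap, and the log2 difference was 2.19 ± 0.54 (SE). In edgeR the unadjusted p was 0.00541 and the adjusted p 0.441, and DESeq2 gave an adjusted p of 0.00681. Scube3 had the highest mean level of the list in CPM, 26.4, with 102 CPM in tumor 25 and 4.78 to 16.6 CPM in the other 5, and Scube2 the lowest, 1.23 CPM. Dhh, itself a Hedgehog ligand, was steadier than Shh and Ihh, at 2.16 to 4.26 CPM. Its mean was 3.09 CPM, against 2.07 CPM for Shh.

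At the cell surface, Ptch1, the receptor that holds Smo in check, gave 1.82, 3.53 and 8.56 CPM in tumors 13, 18 and 25, and 11.8, 10.5 and 16.6 CPM in tumors 27, 29 and 36. The lines did not overlap, although tumor 25 came close to the lowest FSP1-Cre;NT3 tumor. The log2 difference was 1.48 ± 0.58 (SE), with a 95% interval from 0.11 to 2.85. In edgeR its unadjusted p was 0.0378 and its adjusted p 0.458, and DESeq2 gave an adjusted p of 0.171. Without tumor 13 the difference was 1.09 and without tumor 25 it was 2.21, with an adjusted p from edgeR of 0.845 and 0.0763.

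Smo, the transducer, showed no such shift. It measured 54.2, 47.4 and 62.6 CPM in Osx-Cre;NT3 and 55.3, 60.2 and 56.2 CPM in FSP1-Cre;NT3 tumors, and all 3 FSP1-Cre;NT3 values lay inside the Osx-Cre;NT3 range. The log2 difference of 0.06 ± 0.18 (SE) had a 95% interval from -0.36 to 0.49. Per length, Ptch1 was 0.0311, 0.0689 and 0.126 times Smo in tumors 13, 18 and 25 and 0.197, 0.161 and 0.273 times Smo in tumors 27, 29 and 36.

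Hhip, the secreted or membrane-tethered ligand trap, ran the other way. It measured 33.0, 36.1 and 94.6 CPM in tumors 13, 18 and 25, and 27.2, 28.4 and 21.1 CPM in tumors 27, 29 and 36. The lines did not overlap, but tumor 25 stood far above the other 5 and the gap between the lines was small. The log2 difference was -1.09 ± 0.44 (SE), with a 95% interval from -2.13 to -0.06. In edgeR its unadjusted p was 0.0413 and its adjusted p 0.458, and DESeq2 gave an adjusted p of 0.220. Without tumor 25 the difference was -0.49, with an adjusted p of 0.217. Per length, Hhip exceeded Ptch1 by factors of 8.60, 4.85 and 5.24 in the Osx-Cre;NT3 tumors. In the FSP1-Cre;NT3 tumors that ratio was 1.09, 1.29 and 0.604.

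The co-receptors and other ligand-binding proteins (Boc, Cdon, Gas1, Lrp2 and Gpc3) had a median line difference of 1.13 on the log2 scale, and 4 of 5 had a higher estimate in FSP1-Cre;NT3. At an unadjusted p under 0.05 were 3 of 5, against 10.8% of all genes, all 3 of them higher, against 7.31%, and 0 passed the adjusted threshold in edgeR. Boc, a co-receptor that presents Shh to Ptch1, measured 3.06, 5.70 and 2.28 CPM in Osx-Cre;NT3 and 9.09, 15.1 and 16.0 CPM in FSP1-Cre;NT3 tumors. Its log2 difference was 1.86 ± 0.44 (SE), and its adjusted p was 0.432 in edgeR and 0.00634 in DESeq2. Gas1, another Shh co-receptor and a gene of fibroblasts, measured 14.7, 28.2 and 14.1 CPM against 64.7, 34.2 and 90.4 CPM, a log2 difference of 1.73 ± 0.44 (SE). For Gas1 the adjusted p was 0.441 in edgeR and 0.0161 in DESeq2. Both genes were separated between the lines.

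Gpc3, a glypican that competes for ligand, measured 5.92, 10.2 and 4.67 CPM in Osx-Cre;NT3 and 11.0, 20.4 and 14.4 CPM in FSP1-Cre;NT3 tumors, with a log2 difference of 1.13 ± 0.40 (SE). Its adjusted p was 0.458 in edgeR and 0.149 in DESeq2. The lines did not overlap. Lrp2, a large endocytic receptor that can take up Shh, had the lowest mean of the list, 2.77 CPM. Of the products that bind ligand without passing it on, the RNA for Gpc3 was higher and that for Hhip lower in FSP1-Cre;NT3 tumors.

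**Figure D3:**
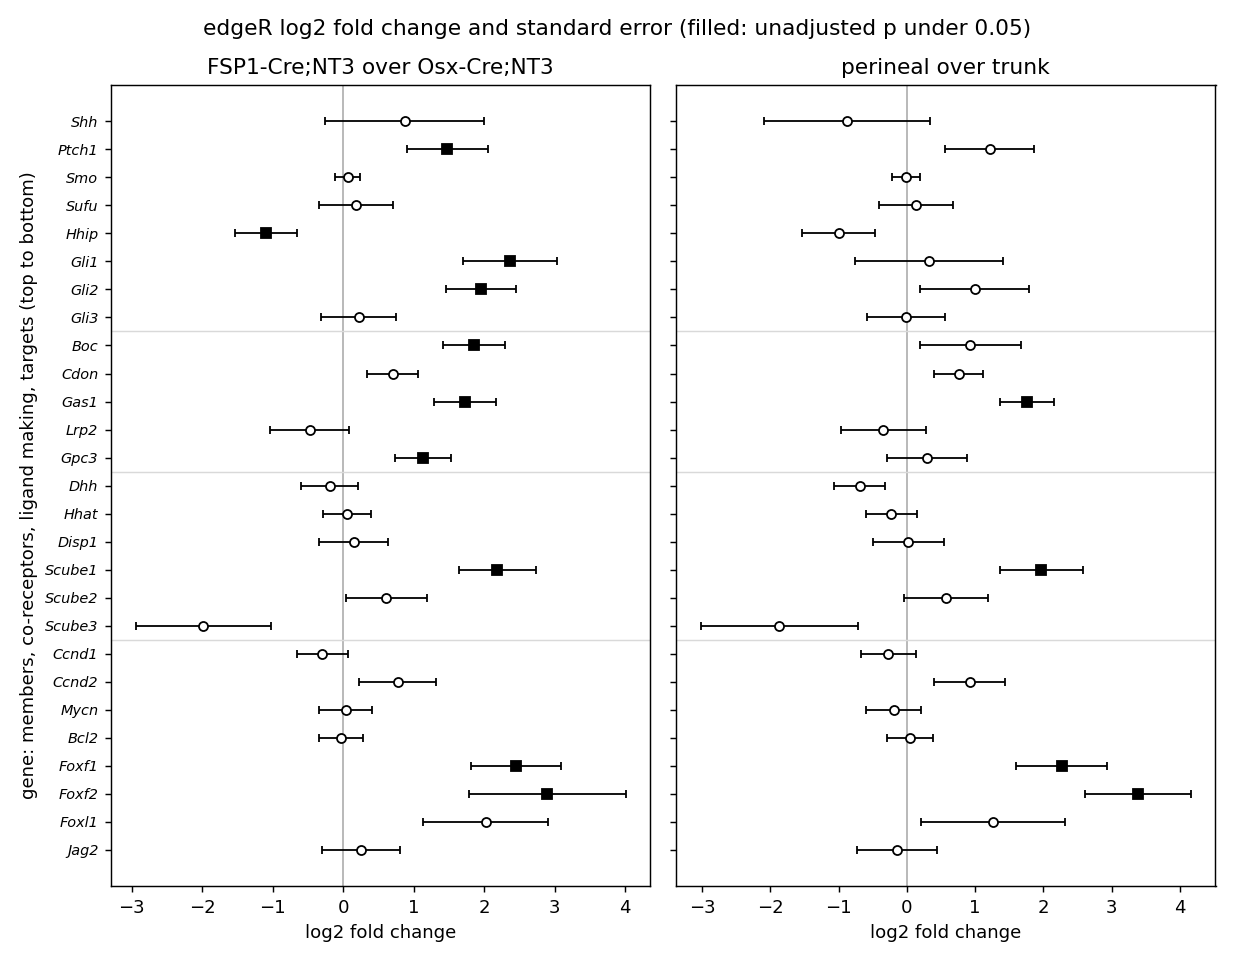
Log2 fold change with its SE from edgeR for 8 Hedgehog members and 19 other pathway genes, FSP1-Cre;NT3 over Osx-Cre;NT3 on the left and perineal over trunk on the right (Ihh is not shown). Filled squares have an unadjusted p under 0.05, and Gli1 at 2.37 and Gli2 at 1.96 are filled on the left and open on the right.

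Downstream of Smo, Sufu, which holds the Gli proteins in the cytoplasm, measured 15.6, 9.89 and 39.4 CPM in Osx-Cre;NT3 and 31.4, 24.4 and 17.9 CPM in FSP1-Cre;NT3 tumors. Tumor 25 was the highest and tumor 18 the lowest, and the lines overlapped. The log2 difference was 0.18 ± 0.52 (SE), with a 95% interval from -1.06 to 1.42. Of 17 genes of the cilium and of Gli processing, 7 had a higher estimate in FSP1-Cre;NT3, against 51.1% of all genes, and the median log2 difference was -0.06. Of the 17, the lines did not overlap for 1 that was higher and 2 that were lower in FSP1-Cre;NT3, against 17% of all genes in either direction. These shares were near those of all genes. An unadjusted p under 0.05 was found for 1 of the 17, against 10.8% of all genes, which with so few genes is no clear difference. That gene was Kif7, a ciliary kinesin that regulates Gli proteins, at 1.37, 1.48 and 1.38 CPM against 2.55, 3.13 and 3.28 CPM, a log2 difference of 1.08 ± 0.34 (SE) with no overlap. Its adjusted p was 0.458 in edgeR and 0.0326 in DESeq2. Prkar1a, a regulatory subunit of the protein kinase that phosphorylates Gli2 and Gli3, had the highest mean of the list, 269 ± 24.8 CPM (SD, n = 6).

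The Gli factors split. Gli1, the activator that is itself a target of the pathway, measured 1.49, 2.53 and 0.563 CPM in tumors 13, 18 and 25, and 4.76, 12.8 and 6.19 CPM in tumors 27, 29 and 36. The lines did not overlap, tumor 29 was the highest and tumor 25 the lowest. The log2 difference was 2.37 ± 0.66 (SE), with a 95% interval from 0.79 to 3.95. In edgeR its unadjusted p was 0.00958 and its adjusted p 0.458, and DESeq2 gave an adjusted p of 0.0168. Leaving out each tumor in turn moved it between 1.79, without tumor 29, and 2.95, without tumor 18. The lncRNA entry Gm47200 of GENCODE M21 lies antisense over 9584 bases of Gli1, is no entry of the table, and its reads could fall on Gli1 if strand was not used.

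Gli2, the main transcriptional activator upstream of Gli1, measured 1.08, 3.00 and 1.24 CPM in Osx-Cre;NT3 and 5.53, 7.72 and 7.50 CPM in FSP1-Cre;NT3 tumors. The lines were separated, and the 3 FSP1-Cre;NT3 tumors lay closer together than for Gli1. The log2 difference was 1.96 ± 0.50 (SE), with a 95% interval from 0.78 to 3.14. In edgeR its unadjusted p was 0.00582 and its adjusted p 0.441, and DESeq2 gave an adjusted p of 0.00927.

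Gli3, which acts chiefly as a repressor, measured 17.7, 8.08 and 36.4 CPM in Osx-Cre;NT3 and 28.4, 27.7 and 16.2 CPM in FSP1-Cre;NT3 tumors. The lines overlapped, with the highest and the lowest value both in Osx-Cre;NT3 tumors. The log2 difference of 0.22 ± 0.54 (SE) had a 95% interval from -1.06 to 1.50. Per length, Gli1 was 0.194, 0.721 and 0.0356 times Gli3 in tumors 13, 18 and 25 and 0.386, 1.06 and 0.880 times Gli3 in tumors 27, 29 and 36, so this ratio overlapped between the lines while Gli1 alone did not.

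Counted over the members, 8 of 9 passed the filter on low counts in the comparison of lines, and Ihh did not. In edgeR 0 of 8 reached an adjusted p under 0.05, as did 0 of all 16415 genes (0%), while DESeq2 called 2 members and 420 genes. At an unadjusted p under 0.05 were 4 of the 8, against 10.8% of all genes tested, and 3 of these were higher in FSP1-Cre;NT3 tumors, against 7.31%. The lines did not overlap for the same 4 of 8 members, against 17% of all genes, and 3 of them were higher, against 9.03%. A higher estimate in FSP1-Cre;NT3 was found for 7 of 8 members and for 51.1% of all genes. The median log2 difference of the 8 was 0.55, against 0.01 for all genes, and leaving out 1 tumor moved it between 0.14 without tumor 29 and 1.31 without tumor 18. The smallest adjusted p of any gene in this comparison was 0.359.

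Site and line could be separated in part, because tumor 29 was a trunk tumor of FSP1-Cre;NT3. With site as a covariate, the log2 difference between the lines was 3.06 for Gli1 and 2.12 for Gli2, both still under the unadjusted threshold in edgeR. It was 1.17 for Ptch1 and -0.94 for Hhip, both no longer under it, and the adjusted p was 1.00 for all 4. Of the other pathway genes, Boc at 2.04 and Gpc3 at 1.55 stayed under the unadjusted threshold, while Gas1 at 0.84, Scube1 at 1.38, Kif7 at 1.15, Foxf1 at 1.42 and Foxf2 at 0.070 did not. These estimates rest on tumor 29 as the only FSP1-Cre;NT3 trunk tumor.

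The fibroblast genes separated the lines as well. Their sum was 4242, 3505 and 3408 CPM in tumors 13, 18 and 25, and 7330, 9990 and 7302 CPM in tumors 27, 29 and 36, so the lines did not overlap. All 6 genes had a higher estimate in FSP1-Cre;NT3, with a median log2 difference of 1.27. Without overlap between the lines were 5 of them, against 9.03% of all genes in that direction, and 4 had an unadjusted p under 0.05, against 7.31%. The ratio of the line means was 2.21 for the fibroblast sum, 5.18 for Gli1, 3.90 for Gli2, 2.79 for Ptch1 and 0.469 for Hhip. Col1a1 and Col1a2 made up most of that sum, so its ratio is mainly theirs, and single fibroblast genes differed from it. With FSP1-Cre;NT3 given first, the line means were 83.2 against 21.7 CPM for Pdgfra and 780 against 271 CPM for Dcn. They were 402 against 169 CPM for Lum and 167 against 90.8 CPM for Dpt. In bulk tumors more cells of a type and more RNA per cell cannot be told apart, and the part of the fibroblast content in these differences was not tested.

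**Figure D4:**
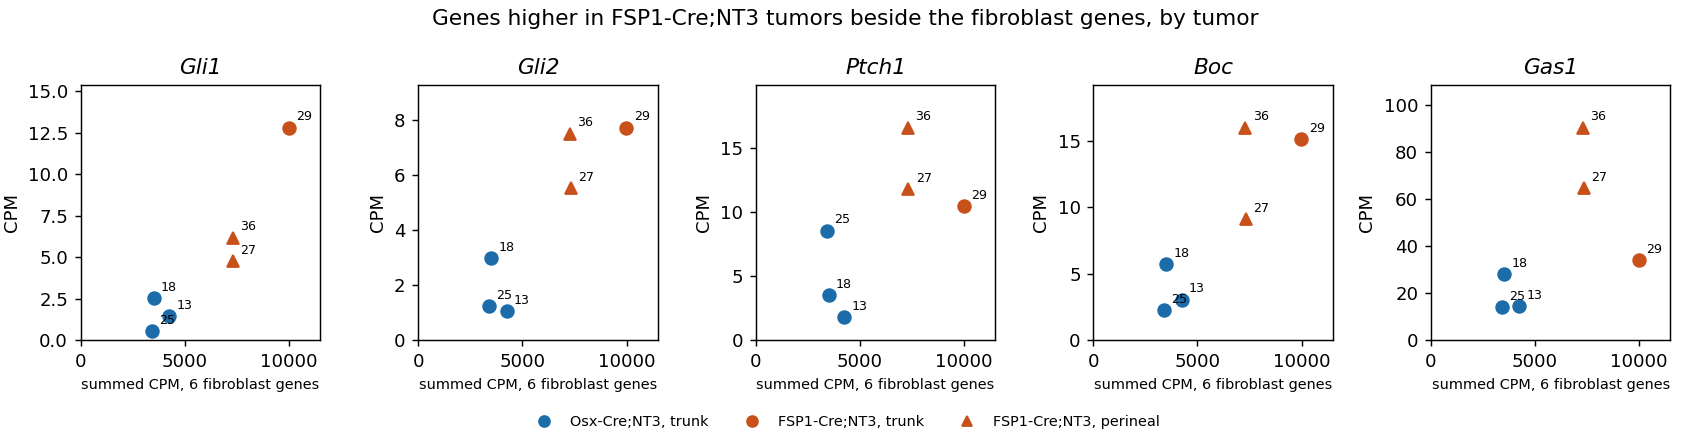
CPM of Gli1, Gli2, Ptch1, Boc and Gas1 in each tumor, plotted against the summed CPM of the 6 fibroblast genes. The 3 FSP1-Cre;NT3 tumors lie to the right, between 7302 and 9990, and above the Osx-Cre;NT3 tumors in each panel.

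Of the other 7 cell type lists, the sum was separated between the lines for hypertrophic cartilage alone. The basal keratinocyte genes (Krt5, Krt14, Krt15, Trp63, Col17a1 and Itga6) summed to 9956 to 14247 CPM in Osx-Cre;NT3 and 5687 to 12809 CPM in FSP1-Cre;NT3 tumors. The dermal papilla genes (Corin, Sox18, Wif1, Rspo3 and Prom1), a mesenchymal list that takes part in Shh signaling in hair follicles, summed to 34.4 to 163 CPM and 63.6 to 74.8 CPM, with Rspo3 at 0 in tumor 25. Both sums overlapped between the lines. Prom1 held much of the dermal papilla sum, at 48.9, 121 and 20.8 CPM against 24.0, 36.2 and 42.4 CPM. By gene, 2 of the 5 were higher in every FSP1-Cre;NT3 tumor, against 9.03% of all genes, and 0 were lower in every one. These were Sox18, at 12.1 to 16.6 against 20.4 to 24.5 CPM, and Rspo3, at 0 to 0.572 against 0.614 to 4.03 CPM. The sums of hypertrophic cartilage genes, at 12.8 to 22.4 CPM in Osx-Cre;NT3 and 29.3 to 36.8 CPM in FSP1-Cre;NT3 tumors, did not overlap, but the list went both ways. Pth1r, the receptor of parathyroid hormone related protein, made up much of the sum and overlapped, at 8.94, 18.6 and 4.03 CPM against 18.1, 23.5 and 23.9 CPM. Col10a1 was lower in every FSP1-Cre;NT3 tumor, at 1.08, 0.520 and 1.35 CPM against 0.153, 0.282 and 0.156 CPM, and 1 of the 5 genes, Acan, was higher in all 3 of them. The smooth muscle and myoepithelial genes (Acta2, Tagln, Cnn1, Myh11 and Smtn) summed to 238 to 526 CPM and 295 to 2146 CPM, and the adipocyte genes (Adipoq, Plin1, Cidec, Fabp4 and Lep) to 2.53 to 12.7 CPM and 3.31 to 128 CPM. Both overlapped and peaked in tumor 36.

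Target genes outside the members (Ccnd1, Ccnd2, Mycn, Bcl2, Foxf1, Foxf2, Foxl1 and Jag2) had a higher estimate in FSP1-Cre;NT3 in 6 of 8, with a median log2 difference of 0.51. At an unadjusted p under 0.05 were 2 of the 8, both higher, against 10.8% of all genes, or 7.31% in that direction. These were Foxf1 and Foxf2, forkhead factors of Hedgehog-responsive mesenchyme. Foxf1, listed in the table as Foxf1a, measured 0.580, 0.442 and 0.451 CPM in Osx-Cre;NT3 and 1.63, 1.31 and 5.13 CPM in FSP1-Cre;NT3 tumors. The log2 difference was 2.45 ± 0.64 (SE) with no overlap, and 1.58 without tumor 36. Over all 6 tumors the adjusted p of Foxf1 was 0.441 in edgeR and 0.0169 in DESeq2, and that of Foxf2 0.458 and 0.114. Foxf2 measured 0.538, 0.247 and 0.253 CPM against 0.890, 0.359 and 6.44 CPM, so it overlapped and rested on tumor 36, without which its log2 difference of 2.90 was 0.86. The highest mean of the list belonged to Ccnd1, the cyclin of early G1, at 392 ± 140 CPM (SD, n = 6), and the lowest to Foxl1 at 0.457 CPM.

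Between sites, perineal against trunk, the members showed no common direction. All 9 passed the filter, 5 had a higher estimate in perineal tumors, against 48.5% of all genes, and the median log2 difference was 0.14 against -0.02 for all genes. In edgeR 0 of 9 members and 0 of 16971 genes (0%) reached an adjusted p under 0.05, while DESeq2 called 1 member, Ihh, and 605 genes. At an unadjusted p under 0.05 was 1 of 9, again Ihh, against 10.5% of all genes, or 8.88% in its direction. The Ihh difference of 6.65 ± 1.77 (log2, SE) had an adjusted p of 0.288 in edgeR and 0.00217 in DESeq2, and without tumor 36 it was -0.16. The sites did not overlap for 2 of 9 members, Ptch1 and Hhip, against 19.8% of all genes, and 1 of them, Ptch1, was higher in perineal tumors, against 10.2%.

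Ptch1 was higher in the 2 perineal tumors than in any trunk tumor, by 1.21 ± 0.65 (log2, SE), and for Hhip, lower in both, the difference was -0.997 ± 0.54, or -0.47 without tumor 25. Neither passed the unadjusted threshold, and the adjusted p was 0.551 for both in edgeR. For Gli1 the site difference was 0.32 ± 1.09 (log2, SE), and it was -1.23 with line as a covariate, since the trunk tumor 29 held the highest Gli1 of the FSP1-Cre;NT3 tumors. For Gli2 it was 0.99 ± 0.79, and -0.25 with line as a covariate. Smo at -0.01 ± 0.20, Gli3 at -0.02 ± 0.57, Sufu at 0.14 ± 0.54 and Shh at -0.88 ± 1.22 had differences within their errors.

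Of the other pathway genes, 4 had an unadjusted p under 0.05 between the sites and all were higher in perineal tumors. These were Gas1 at 1.76 ± 0.40 (log2, SE), Scube1 at 1.97, Foxf1 at 2.27 and Foxf2 at 3.39 ± 0.77. Without tumor 36 these differences were 1.50, 1.46, 1.22 and 1.36. By list, that is 1 of 6 ligand genes with a median of -0.10, 1 of 5 co-receptors with a median of 0.76, 0 of 17 cilium genes with a median of -0.10 and 2 of 8 targets with a median of 0.48. Over these lists the share is close to the 10.5% of all genes, or 8.88% in that direction. Several cell type lists had higher estimates in perineal tumors as well. All 5 adipocyte genes were higher in both perineal tumors than in any trunk tumor, against 10.2% of all genes, with a median log2 difference of 3.84. An unadjusted p under 0.05, higher in perineal tumors, was found for 4 of 5 smooth muscle and myoepithelial genes (median 2.00), 3 of 5 simple epithelium genes (median 1.77) and 2 of 6 hair follicle genes (median 2.17). The sums of these 3 lists peaked in tumor 36. In the other perineal tumor, 27, they were 333, 566 and 38.1 CPM in that order. The trunk tumors had 238 to 526, 581 to 1174 and 13.5 to 109 CPM, so these differences rested on tumor 36. The part of these cell types in the site differences was not tested.

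Some members moved together across the tumors, and how often other pairs of genes do so was not computed. Over the 6 tumors, which share the line difference, Pearson's r of log2 CPM was 0.92 between Gli1 and Gli2, 0.84 between Shh and Gli1 and 0.69 between Shh and Gli2. Sufu and Gli3 reached 0.97, Smo and Gli3 0.92, and Smo and Sufu 0.87. Ptch1 lay between, with 0.73 to Gli2, 0.47 to Gli1 and 0.04 to Shh. Hhip ran against Gli1 at -0.83 and against Shh at -0.74. With 6 points of 2 lines these values describe the tumors and carry no test.

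**Figure D5:**
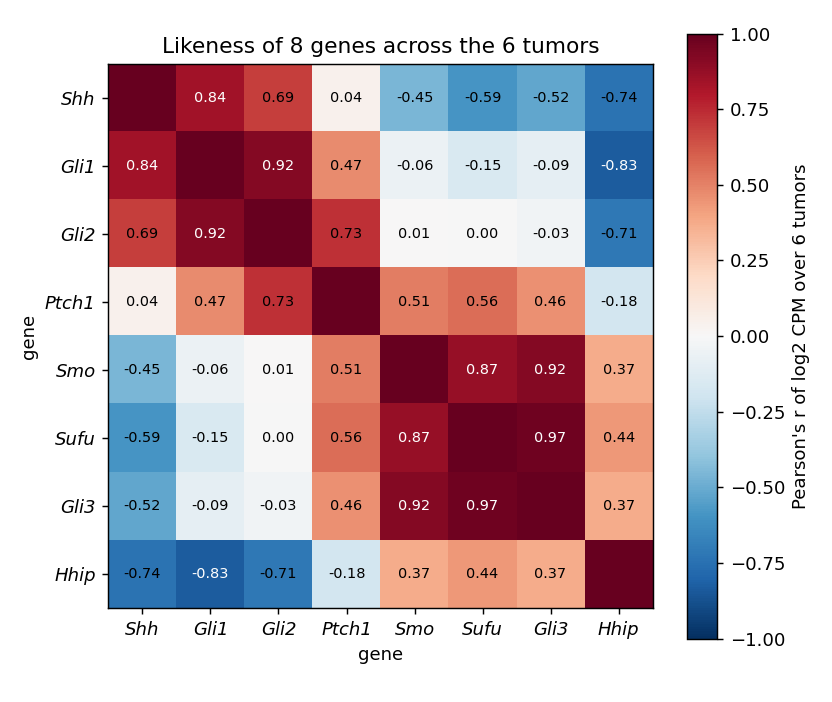
Pearson's r of log2 CPM over the 6 tumors for each pair of 8 Hedgehog members (Ihh left out), from blue (negative) to red (positive). Sufu, Smo and Gli3 form one block with r of at least 0.87, Gli1 and Gli2 reach 0.92, and Hhip is negative to both.

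Among all genes, those most like Gli1 across the tumors were Sprn (r = 0.997), Apcdd1 (0.995), 4933404M02Rik (0.989), Mir3061 (0.988) and Tceal3 (0.988). Among those most like Ptch1 were Tmcc2 (0.995), Arid3b (0.992), Grik3 (0.986) and Snx30 (0.985). With n = 6 tumors and this many genes some very high values can arise, and 53 of 16414 genes exceeded an r of 0.95 with Gli1 and 54 with Ptch1. Within the pathway lists, Gpc3 ranked 11th and Boc 31st of all genes by likeness to Gli1, Gli2 108th and Shh 383rd.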

How the data were processed

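RNA from 6 tumors was sequenced by the authors, and 2 kinds of value per gene were deposited. The raw read counts per gene are without normalization, and the RPKM values, scaled by the authors to gene length and library size, were deposited beside them. The submitters' processing notes name bcl2fastq, TopHat2 2.0.6, HTSeq and mm10, whereas the study's methods name HISAT2 and featureCounts on trimmed reads. The strand setting is not given in the sources used here. All counts are even, so depth in fragments may be lower than the totals show. Of the symbols 43 repeat and were kept apart, and 0 columns of values were left unused.

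The counts were tested with edgeR 4.0.16 (filterByExpr, TMM, glmQLFit, glmQLFTest, Benjamini-Hochberg over all genes tested, threshold 0.05) in R 4.3.3, FSP1-Cre;NT3 over Osx-Cre;NT3 and perineal over trunk, with no covariate. CPM are TMM-scaled, log2 CPM used a prior count of 2, and intervals are 95%. RPKM served only to compare genes. DESeq2 1.42.0, other scalings, filters and covariates, tumors of 1 site or line, halved counts and leaving out each tumor were alternatives. The scripts were tested on simulated counts. Depth was high enough that the number of tumors limits the precision. Each tumor is from another mouse, and mice of the lines share no replicate numbers.

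All 9 members were named, and Dhh was named as a further ligand. From the lists of ligand making and release, co-receptors and ligand binding, cilium and Gli processing, and target genes, the gene with the highest and the lowest mean CPM and each with an unadjusted p under 0.05 were named, with the 5 genes most like Gli1 and Ptch1. Some genes of the lists and of those 5 are not reported here. Members and lists were chosen with earlier results of these data known. Sets of marker genes were only described.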

Additional observations from a re-analysis of the deposited data

Results flagged for a closer look

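In 2 of the 9 members 1 tumor lay far from the other 5, its gap to the nearest tumor, as a share of the whole range, being above Dixon's critical value for 6 samples. For normally distributed values of 1 group, chance gives such a gap in about 1 of 20 genes, or 0.45 of 9. The values here were untransformed CPM of 2 lines, so that rate may not hold. The share of all genes with such a gap was not computed. Ihh stood at 14.2 CPM in tumor 36, the next value being 0.180 CPM in tumor 29. Hhip stood at 94.6 CPM in tumor 25, the next value being 36.1 CPM in tumor 18.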

How the results depend on the processing

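With DESeq2 in place of edgeR, the adjusted threshold was passed between the lines by 420 genes and 2 members (Gli1 and Gli2) and between the sites by 605 genes and 1 member (Ihh), against 0 in edgeR. Members with an unadjusted p under 0.05 between the lines fell from 4 to 2 with site as a covariate and in trunk tumors alone, and ranged from 2 (without tumor 36) to 4 when each tumor was left out. Between the sites this number was 1, and 0 with a minimum of 10 counts per tumor, with halved counts, with line as a covariate and in FSP1-Cre;NT3 tumors alone, and 0 to 3 when each tumor was left out, with 3 without tumor 29, when site and line coincide. Leaving out a tumor gave 0 to 567 genes and 0 to 1 members with an adjusted p under 0.05 between the sites, the highest without tumor 27 (2 genes without tumor 25), and 0 genes and members between the lines.

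Some signs turned. Between the sites, Smo became 0.076 with library sizes alone and 0.014 with that minimum, and Gli3 became 0.075 with library sizes, 0.0093 with the minimum and 0.013 under upper-quartile scaling. With line as a covariate and in FSP1-Cre;NT3 tumors alone, Gli1 became -1.23 and -1.24 and Gli2 -0.25 and -0.26. When each tumor was left out, the line difference ran from -0.17 to 0.87 for Gli3, -0.20 to 2.54 for Shh, -0.033 to 0.13 for Smo and -0.17 to 0.91 for Sufu. The site difference ran from -0.058 to 1.79 for Gli1, -0.49 to 0.33 for Gli3, -0.16 to 7.61 for Ihh, -0.086 to 0.014 for Smo and -0.34 to 0.54 for Sufu. The cause was not tested. Of 224 alternative values for single genes between the lines 211 kept sign and side of the threshold, and of 179 between the sites 156. The other pathway genes entered these alternatives after the data had been seen. Ihh, with 0 to 14 counts in 5 of the tumors, did not pass the filter between the lines, and with no filter on low counts 5 members had an unadjusted p under 0.05 and the members' median line difference was 0.87 in place of 0.55. No paired analysis was possible because the lines share no replicate numbers.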
